A study of Rattus norvegicus with 138 samples.

Results

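The globin and heme genes described here were followed through the brainstem of the spontaneously hypertensive rat (SHR) and its normotensive control, the Wistar-Kyoto (WKY) rat. They were the alpha-globin genes Hba-a1 (ENSRNOG00000029886), Hba-a2 (ENSRNOG00000047321) and Hba-a3 (ENSRNOG00000045989), the beta-globin gene Hbb (ENSRNOG00000058105), the red cell enzyme gene Alas2 (ENSRNOG00000000167), and the tissue globin genes Ngb (ENSRNOG00000011719) and Cygb (ENSRNOG00000011541). They were taken by gene symbol from the count tables of the 3 regions, and all 7 of 7 were found among 32883 genes. The set was chosen by the near absence of Hba-a3 counts from SHR libraries, and the other members are its relatives and a red cell marker. The strain difference of the set is therefore given as a description with no p-value, while the effects of region and age, how the strain difference varies with them, and the covariation between rats are tested. Hba-a3, at 0 or 1 count in SHRs, is left out of the counts of tests that use SHR libraries unless its inclusion is stated.

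Hemoglobin is a tetramer of alpha and beta chains that carries oxygen in red cells. Young red cells still hold globin mRNA, so a tissue that contains blood gives globin reads. Alas2 is the red cell form of 5-aminolevulinate synthase, which starts heme synthesis in the precursors of red cells. Neuroglobin (Ngb) is a globin of neurons, and cytoglobin (Cygb) is a globin of fibroblast-like cells and of some neurons. Neither tissue globin is a part of hemoglobin.

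The samples were punches of the nucleus of the solitary tract (NTS), the caudal ventrolateral medulla (CVLM) and the rostral ventrolateral medulla (RVLM) from 46 female rats, 1 library per region and rat. At 8 wk of age there were 5 WKY rats (WKY/NHsd) and 5 SHRs (SHR/NHsd), at 10 wk 4 and 5, and at each of 12, 16 and 24 wk 3 and 6. No group was treated, and each strain is 1 inbred line from 1 vendor. The rats were decapitated under isoflurane, the brain was chilled and frozen, and the methods describe no perfusion, so vessels in the punches could still hold blood. In such bulk tissue, fewer red cells and less RNA per red cell cannot be told apart.

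Total counts per library ran from 5904570 to 17889406. Names of libraries end in 1 or 2, and the labels do not say what this number means. All 10-wk libraries end in 2, as do those of WKY replicates 3, 4 and 5 at 8 wk, SHR replicate 6 at 12 wk and SHR replicate 6 at 24 wk, in every region. Age 10 wk and the number 2 therefore overlap, fully so in SHRs at 8 and 10 wk. The F tests of age in the 7 genes are given with and without this number as a term. For single genes outside the set, age results are given without it only. The age label of 2 CVLM libraries named for 8 wk reads 10 wk, and they were kept at 8 wk. Choroid plexus genes summed to over 10 times the regional median in 7 libraries, all of WKY rats, and results that change without them are given both ways. They were 5 of the NTS, at 101 to 4364 CPM (counts per 1000000 counts of a library) against at most 10.8 in the others, and 2 of the CVLM, at 34.6 and 197 CPM, while the highest SHR value of these regions was 9.49. The punches carried markers of the medulla, such as Th, Dbh, Slc6a5 and Chat.

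Counts were scaled to CPM with 1 set of normalization factors over all libraries, so values can be set side by side across regions. CPM is not divided by gene length, so the sums and ratios over genes given here compare libraries and not amounts of protein or RNA molecules. The 3 alpha-globin genes are near copies of each other, and the authors' tool shares out reads that fit several copies, so the split between copies is an estimate.

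The alpha-globin copies have similar proximal promoters, which are shown here because the data separate Hba-a3 from its neighbors. The 120 bases before each annotated start (RefSeq, build GRCr8, minus strand) are printed 5′ to 3′, with matches to the CCAAT motif, the TATAAA motif, the CATAAA motif and the CACCC motif in capitals. The windows are chr10:15842581-15842700 for Hba-a1, chr10:15829139-15829258 for Hba-a2, chr10:15816944-15817063 for Hba-a3 and chr1:167663722-167663841 for Hbb. They were matched to the counted genes by symbol only. Synonyms of the alpha-globin copies overlap between the annotations, so a window may not belong to the counted copy of that name.
Hba-a1: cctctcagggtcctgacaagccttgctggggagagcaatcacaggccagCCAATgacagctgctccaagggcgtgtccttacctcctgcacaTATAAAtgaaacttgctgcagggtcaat
Hba-a2: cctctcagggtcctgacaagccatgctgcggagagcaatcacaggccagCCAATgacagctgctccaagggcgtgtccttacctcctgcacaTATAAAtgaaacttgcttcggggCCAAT
Hba-a3: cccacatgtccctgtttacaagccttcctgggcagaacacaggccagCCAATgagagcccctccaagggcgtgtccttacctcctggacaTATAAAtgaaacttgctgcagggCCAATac
Hbb: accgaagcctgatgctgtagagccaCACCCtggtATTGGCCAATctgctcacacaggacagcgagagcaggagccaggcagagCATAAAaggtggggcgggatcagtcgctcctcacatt

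In a global alignment, 115 of 120 bases were the same between Hba-a1 and Hba-a2, 104 between Hba-a1 and Hba-a3 and 101 between Hba-a2 and Hba-a3. Hbb matched the alpha copies at 70 to 73 bases. CCAAT began 71 bases before the start of Hba-a1 and Hba-a2 and 73 bases before that of Hba-a3, and TATAAA began 28, 28 and 30 bases before it. A second CCAAT began 5 bases before the start of Hba-a2 and 7 bases before that of Hba-a3, and Hba-a1 had no second one in this window. Hbb held CACCC at 95 bases before its start, CCAAT on both strands at 86 and 81 bases, and CATAAA at 37 bases. On both strands of 33469 RefSeq promoters of this length, 19.9% held CCAAT, 6.66% TATAAA, 5.28% CATAAA and 29.5% CACCC. A match is a description of the reference, which is not the genome of either strain, and the promoter of Cygb was not used here.

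Hba-a3 was counted in every WKY library and was at or next to 0 in SHR libraries. In the NTS, estimated counts in WKY rats were 89, 30, 18, 22 and 41 (8 wk), 22, 38, 21 and 25 (10 wk), 38, 45 and 24 (12 wk), 48, 33 and 30 (16 wk) and 32, 21 and 55 (24 wk). In the CVLM they were 44, 25, 40, 20 and 36 (8 wk), 18, 27, 24 and 9 (10 wk), 31, 42 and 32 (12 wk), 47, 42 and 34 (16 wk) and 27, 40 and 63 (24 wk). In the RVLM they were 39, 39, 38, 54 and 32 (8 wk), 23, 16, 31 and 15 (10 wk), 26, 40 and 13 (12 wk), 40, 34 and 24 (16 wk) and 23, 16 and 33 (24 wk). The lowest WKY library held 9 counts.

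Of 84 SHR libraries, 78 had 0 counts and 6 had 1 count each, and no age or region stood apart. These 6 libraries were 4 of the CVLM, 1 of the NTS and 1 of the RVLM. The groups did not overlap in any of the 15 comparisons of region and age. Summed over libraries, WKY and SHR held 632 and 1 counts (NTS), 601 and 4 (CVLM) and 536 and 1 (RVLM).

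The pooled WKY level was 2.92 CPM (NTS), 3.05 (CVLM) and 2.76 (RVLM). Over the 3 regions the WKY level was 438 times the SHR level, with an exact binomial 95% interval of 201 to 1196 that covers counting error only. A count of 0 allowed up to 3 counts, or 0.168 CPM in the deepest library and 0.514 CPM in the shallowest, all below the lowest WKY level of 0.596 CPM. Of 32883 genes, Hba-a3 was the only one with at most 3 counts in every SHR library and at least 5 in every WKY library, and no gene met the reverse rule. That Hba-a3 met this rule restates how the set was chosen, and nothing is read from it. Hba-a3 was the smallest part of alpha-globin in WKY rats, at 0.725% ± 0.179 (SD, n = 18) of alpha-globin counts in the NTS. The CVLM gave 0.640% ± 0.159 and the RVLM 0.634% ± 0.176.

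**Figure D1:**
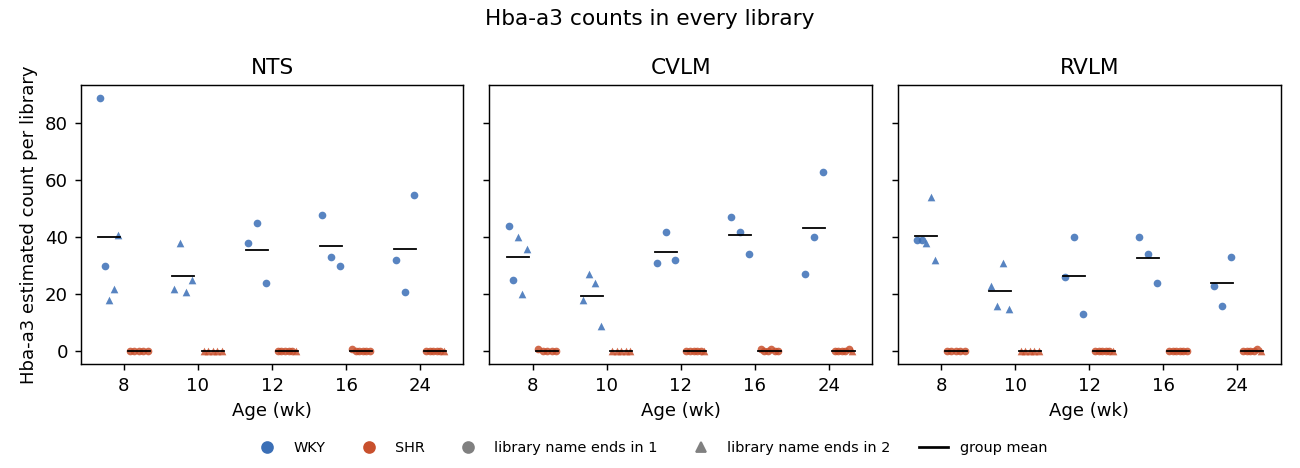
Estimated Hba-a3 counts per library (vertical axis) by age in wk, with a panel per region. Blue points are WKY rats and red points SHRs, triangles are libraries whose name ends in 2, and black bars are group means. WKY libraries lie between 9 and 89 counts, and SHR libraries at 0 or 1.

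The other alpha-globin copies were present in both strains in similar proportions. Hba-a1 made up 71.7% ± 2.03 (SD, n = 18) of alpha-globin counts in the NTS of WKY rats and 71.5% ± 1.25 (n = 28) in SHRs, and Hba-a2 made up 27.6% ± 2.03 and 28.5% ± 1.25. In the CVLM, Hba-a1 held 71.6% ± 2.29 in WKY rats and 71.4% ± 1.46 in SHRs, and in the RVLM 71.9% ± 2.37 and 71.9% ± 1.24. Over all libraries the share of Hba-a1 differed between the strains by less than the spread between libraries. Among libraries ending in 1, however, it was 72.9% ± 1.26 in WKY rats (n = 11) and 71.5% ± 1.05 in SHRs (n = 21) in the NTS, 72.9% ± 0.871 and 71.8% ± 0.995 in the CVLM, and for the RVLM 73.5% ± 1.03 and 71.9% ± 1.26, gaps above the SDs. The share of Hba-a2 there was lower in WKY rats, at 26.4%, 26.4% and 25.9% against 28.5%, 28.2% and 28.05%. Among libraries ending in 2 (n = 7 each) the order turned, with Hba-a1 at 69.7%, 69.4% and 69.4% in WKY rats and 71.6%, 70.4% and 71.8% in SHRs.

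The balance of alpha-globin to Hbb differed between strains and between library numbers. Among libraries ending in 1, the ratio of summed alpha-globin CPM to Hbb CPM in WKY rats (n = 11) was 1.37 ± 0.086 (NTS), 1.36 ± 0.080 (CVLM) and 1.34 ± 0.085 (RVLM). In SHRs (n = 21) it was 1.14 ± 0.072, 1.15 ± 0.076 and 1.16 ± 0.063 in the same order. Among libraries ending in 2 (n = 7 in each strain), it was 1.12, 0.970 and 1.04 in WKY rats and 0.908, 0.852 and 0.897 in SHRs. The SHR mean was lower within each number and region. Leaving Hba-a3 out of the sum moved the WKY mean over all libraries from 1.27 to 1.26 (NTS), from 1.21 to 1.20 (CVLM) and from 1.22 only in the third digit (RVLM). Hba-a3 itself thus made up almost none of the difference in the ratio. The deposited values do not show whether reads of near copies were assigned alike in both strains, and this was not tested.

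**Figure D2:**
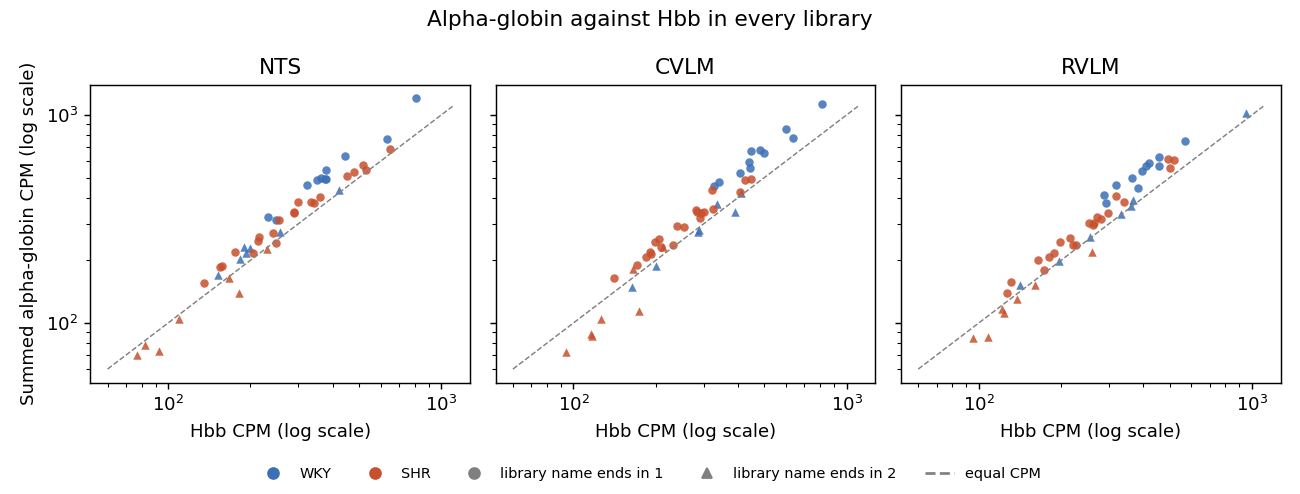
Summed CPM of Hba-a1, Hba-a2 and Hba-a3 against Hbb CPM (both log scales) in every library, with a panel per region and a dashed line of equal CPM. Blue is WKY and red SHR, circles are libraries ending in 1 and triangles libraries ending in 2. At a given Hbb level most WKY circles lie above the SHR circles, and triangles lie nearer to or below the line.

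Levels of the major hemoglobin genes and of Alas2 were lower in SHRs on average. Hba-a1 in WKY rats ran from 118 to 859 CPM in the NTS with a median of 318.5, and in SHRs from 48.9 to 497 with a median of 178.5. In the CVLM the medians were 368.5 and 172.5 CPM, and in the RVLM 334 and 167.5. The ranges overlapped in each region.

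The mean difference of Hba-a1 over the 5 ages, as log2 fold change of SHR against WKY with its standard error, was -0.70 ± 0.17 (NTS), -1.13 ± 0.14 (CVLM) and -0.90 ± 0.14 (RVLM). For Hba-a2, in the same order, it was -0.63 ± 0.16, -1.06 ± 0.13 and -0.85 ± 0.14. Hbb was closer between strains, at -0.41 ± 0.16, -0.89 ± 0.12 and -0.71 ± 0.13. Alas2 gave -0.46 ± 0.17, -0.80 ± 0.14 and -0.54 ± 0.16, at levels of only 1.55 to 8.85 CPM in WKY rats and 0.639 to 6.64 CPM in SHRs. With the library number as a term of the fit, the Hba-a1 values were -0.74, -1.17 and -0.92. The tissue globins lay closer to 0, Ngb at 0.09 ± 0.06, 0.22 ± 0.08 and 0.22 ± 0.06 and Cygb at -0.13 ± 0.07, -0.21 ± 0.06 and 0.00 ± 0.14.

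Of 15 comparisons of region and age, the SHR mean was the lower one in 15 for each alpha-globin gene and Alas2, in 14 for Hbb, in 12 for Cygb and in 2 for Ngb. Every SHR library lay below every WKY library in 15 of these comparisons for Hba-a3, 9 for Hba-a1, 8 for Hba-a2, 5 for Hbb, 3 for Alas2 and 1 for Cygb, while Ngb was higher throughout in 1. Across all genes tested and the 15 comparisons, 3.37% were lower without overlap (1.59% to 6.62% in a single comparison) and 2.82% higher. These comparisons share rats across regions and are not independent.

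At the size the study used, an adjusted p of at most 0.01 and a log2 fold change of at least 1, Hba-a3 was past it at each age in each region, which restates how the set was chosen. In the CVLM, Hba-a1 was also past it at 10, 16 and 24 wk, Hba-a2 at 10 and 24 wk and Hbb at 24 wk. When the replicate number was a block of the fit, these 11 values of the CVLM became 5, and the 5 of the RVLM, all Hba-a3, became 1. Over all genes, 1.22%, 1.25%, 1.21%, 0.805% and 0.986% passed in the NTS, from the youngest to the oldest age. In the CVLM 1.41%, 1.18%, 0.992%, 0.999% and 1.08% passed, and in the RVLM 1.64%, 1.16%, 0.962%, 0.917% and 0.969%. These counts describe the contrast that chose the set, and nothing is read from them.

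In the CVLM, where the strains lay farthest apart, Hba-a1 in WKY rats was 472, 402, 237, 187 and 280 CPM (8 wk), 137, 197, 265 and 101 (10 wk), 484, 331 and 383 (12 wk), 633, 498 and 354 (16 wk) and 432, 565 and 819 (24 wk). In SHRs it was 344, 178, 230, 305 and 164 (8 wk) and 82.9, 64.9, 71.2, 49.6 and 58.9 (10 wk). At 12, 16 and 24 wk the 6 SHR libraries had means of 196.5 ± 49.2, 189 ± 54.7 and 229 ± 88.3 CPM. The strains overlapped at 8 wk and were apart at 10, 12, 16 and 24 wk, with the highest SHR library at 24 wk at 354 CPM.

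Hemoglobin RNA was lowest at 10 wk in both strains. In the NTS, Hba-a1 in SHRs was 271, 271, 416, 386 and 277 CPM at 8 wk and 98.3, 48.9, 51.9, 74.3 and 58.8 at 10 wk. In WKY rats it was 859, 361, 157, 191 and 297 CPM at 8 wk and 157, 142, 163 and 118 at 10 wk. The 5 SHR libraries at 10 wk lay below each other SHR library of the region for Hba-a1 and Hba-a2 in the NTS, CVLM and RVLM. The WKY libraries at 10 wk lay below each other WKY library for Hba-a1 in the RVLM and for Hba-a2 in the NTS and overlapped the others elsewhere. For Hba-a1 in the NTS, the 3 lowest WKY values of 8 wk came from libraries ending in 2.

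In the RVLM, Hba-a1 in SHRs was 431, 228, 245, 429 and 215 CPM at 8 wk and 94, 59, 61.1, 80.1 and 84.7 at 10 wk. In WKY rats it was 549, 452, 679, 274 and 253 CPM at 8 wk and between 109 and 235 CPM in the 4 libraries of 10 wk. There the highest WKY library of 8 wk, replicate 3, ended in 2. At 24 wk the RVLM means were 360 ± 46.4 CPM in 3 WKY rats and 160.8 ± 18.7 in 6 SHRs.

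Age was tested within each strain with edgeR's quasi-likelihood F test over 5 ages and Benjamini-Hochberg adjustment over all genes of the region. In SHRs, Hba-a1, Hba-a2, Hbb and Alas2 passed an adjusted p under 0.05 in each region. For Hba-a1 the edgeR adjusted p was 0.00189 (NTS), 0.000298 (CVLM) and 0.000935 (RVLM), and for Alas2 it was 0.0182, 0.0402 and 0.0277. Of all genes tested, 18.7%, 20% and 14.1% passed in SHRs, so an effect of age was common there.

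In WKY rats, Hba-a1 and Hba-a2 passed in each region, with edgeR adjusted p for Hba-a1 of 0.0418 (NTS), 0.00173 (CVLM) and 0.0413 (RVLM). Hbb (0.0136) and Hba-a3 (0.00435) passed in the CVLM. Of all genes, 12.5%, 22.1% and 6.79% passed in these regions of WKY rats. Ngb and Cygb passed in neither strain and in no region. The WKY calls lay close to the threshold outside the CVLM: leaving out any 1 of 9 WKY rats in the NTS, or of 10 in the RVLM, left no gene of the set. Without the 5 NTS libraries high in choroid plexus genes, edgeR adjusted p in the NTS of WKY rats was 0.14 for Hba-a1 and 0.136 for Hba-a2.

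Between 8 and 10 wk, Hba-a1 in SHRs fell by 2.24 on the log2 scale in the NTS (standard error 0.36, edgeR adjusted p 0.000352), to 0.212 of its 8-wk level. It fell by 1.88 in the CVLM (0.30, 8.7e-05) and by 2.01 in the RVLM (0.30, 9.1e-05). Hbb fell by 1.85, 1.27 and 1.63 and Alas2 by 1.32, 1.01 and 1.50 in the same order of regions, and all passed the test. Over all genes, 12.9%, 11.6% and 10.2% were lower at 10 than at 8 wk. In WKY rats 0 of the 7 genes passed edgeR's test between 8 and 10 wk, with log2 fold changes of Hba-a1 of -1.38, -0.83 and -1.40. At an unadjusted p under 0.05 there were 5 genes (NTS), 5 (CVLM) and 6 (RVLM), and DESeq2 called 3, 0 and 3. Over all genes, edgeR called 0.0218%, 0.0447% and 0.0149% between these ages in WKY rats. Ages 12, 16 and 24 wk were set against 8 wk in 18 contrasts of strain and region, where 1.33% of all values passed. Of 126 values of the set, which here include Hba-a3 in SHRs, 1 passed. It was Hba-a1 in the CVLM of WKY rats at 24 wk (0.99 ± 0.32, edgeR adjusted p 0.036), where 9.14% of genes were higher.

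These age calls rest on the 10-wk libraries. With the library number as a term of edgeR's fit, 0 of the 7 genes in WKY rats and 0 of 6 in SHRs passed the F test in any region. At an unadjusted p under 0.05 there were 3, 0 and 5 genes in WKY rats and 4, 2 and 4 in SHRs (NTS, CVLM, RVLM). Without the 10-wk libraries, 0 genes passed either, with 0, 1 and 1 in WKY rats and 0, 0 and 3 in SHRs at an unadjusted p under 0.05. DESeq2 was not run for these settings. Calls over all genes fell as well. With the term, 0.0435%, 0.403% and 0.0447% of genes passed in WKY rats and 0.5%, 0.679% and 0.194% in SHRs, and without the 10-wk libraries 0.0218%, 3.92% and 0.0597% and 0.384%, 0.358% and 0.119%. The loss of calls is therefore not particular to these genes. With that term the change of Hba-a1 from 8 to 10 wk in SHRs was -1.14 ± 0.40 (NTS), -1.14 ± 0.35 (CVLM) and -1.60 ± 0.39 (RVLM), and edgeR adjusted p was 0.784, 0.502 and 0.137. SHRs at 8 and 10 wk have no library number in common, so in this pair age and number cannot be told apart. In WKY rats, 3 libraries of 8 wk also ended in 2. Hba-a1 in the NTS was 157, 191 and 297 CPM in these and 157, 142, 163 and 118 CPM at 10 wk. In the RVLM every WKY library of 8 wk, at 253 CPM or more, lay above those of 10 wk, at 235 or less. In the CVLM they overlapped, with 187 CPM the lowest of 8 wk and 265 the highest of 10 wk. With the number as a term, the WKY change of Hba-a1 was -0.77 ± 0.34 (NTS), -0.47 ± 0.29 (CVLM) and -1.23 ± 0.33 (RVLM). Its edgeR adjusted p was 0.526, 0.927 and 0.261.

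The difference between strains was not shown to vary with age or with region. In the F test of the strain-by-age terms, 0 of the 6 genes other than Hba-a3 passed in edgeR or in DESeq2 in any region, and 0 reached an unadjusted p under 0.05. Their edgeR adjusted p was 0.419 or more, and 0.0145%, 0.0224% and 0.00746% of all genes passed. In the test of strain by region, 0 of the 6 passed in edgeR or in DESeq2 for any pair of regions. At an unadjusted p under 0.05 there were 3 for NTS against CVLM (Hba-a1, Hba-a2 and Hbb), 1 for NTS against RVLM (Hbb) and 0 for CVLM against RVLM. The lowest edgeR adjusted p was 0.294, for Hbb between the NTS and the RVLM. Of all genes, 0.328%, 1.94% and 0.385% passed in these pairs.

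**Figure D3:**
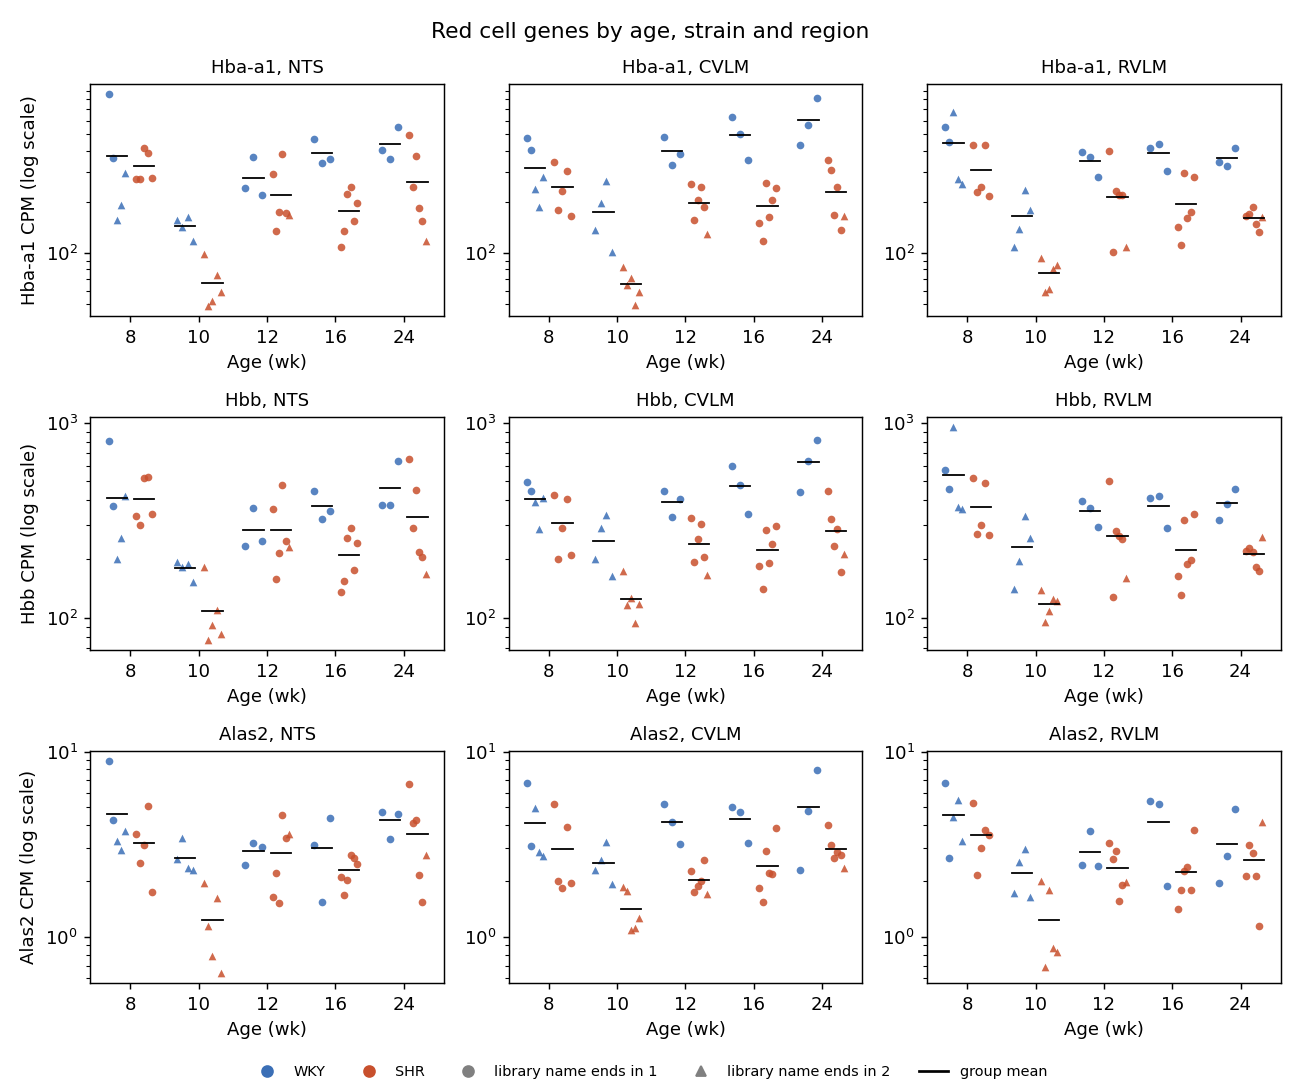
CPM (log scale) of Hba-a1, Hbb and Alas2 (rows) by age in wk in the 3 regions (columns), 1 point per library. Blue is WKY and red SHR, triangles are libraries whose name ends in 2, and black bars are group means. The 10-wk groups, all triangles, have the lowest mean of each strain in every panel.

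The tissue globins differed between regions, and the hemoglobin genes differed little. Cygb in WKY rats was 35.6 ± 5.23 CPM (SD, n = 18) in the NTS, with 35.6 ± 4.10 for the CVLM and 16.9 ± 5.50 for the RVLM, and in SHRs 32.4 ± 5.24, 31.4 ± 4.75 and 17.2 ± 6.07 (n = 28). The RVLM was lowest, with a range of 7.16 to 32.2 CPM over both strains, and its upper libraries overlapped the lower ones of the other regions, which began at 21.7 CPM. In a fit with the rat as a block, the NTS exceeded the RVLM in Cygb by 1.11 ± 0.11 on the log2 scale in WKY rats (edgeR adjusted p 6e-16) and by 0.95 ± 0.09 in SHRs (1.9e-17). Against the RVLM, the CVLM was higher by 1.11 ± 0.11 and 0.91 ± 0.09. NTS and CVLM differed by less than their standard errors in both strains.

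Ngb followed a graded order. Its level in WKY rats was 36.6 ± 5.55 CPM (NTS), 31.3 ± 6.48 (CVLM) and 25.7 ± 4.91 (RVLM), and in SHRs 39.3 ± 6.61, 37.1 ± 5.59 and 29.5 ± 4.42. For Ngb the NTS exceeded the RVLM by 0.51 ± 0.08 in WKY rats (edgeR adjusted p 6e-09) and by 0.41 ± 0.06 in SHRs (4.1e-09). The CVLM was higher than the RVLM by 0.27 ± 0.08 (0.0022) and 0.33 ± 0.06 (2.2e-06). NTS and CVLM differed in WKY rats (0.24 ± 0.08, 0.0051) and missed the threshold in SHRs (0.08 ± 0.06, 0.262). Without the 7 libraries high in choroid plexus genes, the edgeR adjusted p in WKY rats was 0.0529. In neither fit did the strain-by-region test separate the strains (edgeR adjusted p 0.921 with all libraries).

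Genes that differ between these regions were common. In WKY rats and SHRs, 64.2% and 64.4% of genes passed between NTS and RVLM, 41.1% and 44.3% between CVLM and RVLM, and 52.5% and 55.9% between NTS and CVLM. Hba-a1, Hba-a2 and Alas2 in both strains and Hba-a3 in WKY rats passed in 0 of these contrasts in edgeR and in DESeq2, with Hba-a1 and Hba-a2 in NTS against CVLM of WKY rats at an unadjusted p under 0.05. Hbb passed in 1, lower in the NTS than in the CVLM of WKY rats by 0.32 ± 0.12 on the log2 scale (edgeR adjusted p 0.0171), and without the rat as a block its adjusted p was 0.083. Without WKY replicate 1 of 8 wk, 4 genes in place of 2 passed between NTS and CVLM of WKY rats. For Hba-a1 in SHRs the NTS exceeded the RVLM by 0.10 ± 0.10.

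**Figure D4:**
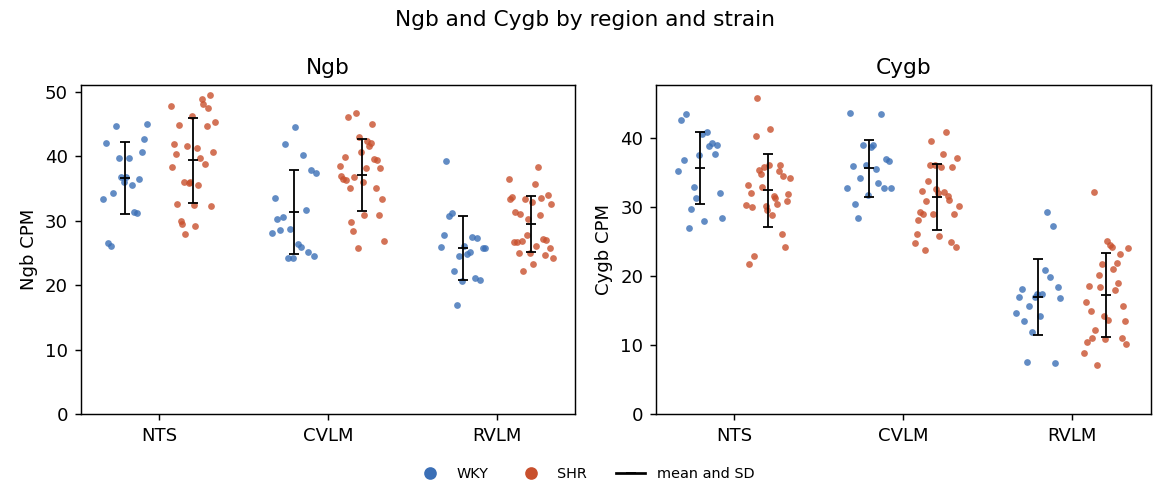
CPM of Ngb (left) and Cygb (right) in the 3 regions, 1 point per library with all ages together, and the mean and SD in black. Blue is WKY and red SHR. Cygb is lowest in the RVLM, with means of 16.9 and 17.2 CPM, and Ngb declines from NTS to CVLM to RVLM in both strains.

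Hemoglobin genes rose and fell together from rat to rat. Correlations were taken over rats within a strain and region, on log2 CPM with the mean of each age removed, and tested by 100000 permutations within ages, with adjustment over the 108 pairs tested. Pearson tests passed an adjusted p under 0.05 in 55 pairs and Spearman tests in 57. The share of pairs of other genes that would pass was not determined. All 18 correlations among Hba-a1, Hba-a2 and Hbb passed, with r from 0.94 to 0.98 and rho from 0.88 to 0.98. Without the 2 rats farthest from the median, r was still 0.90 or more. All members of a pair come from 1 library, and the copies share reads.

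For Hba-a1 with Hbb in the NTS of SHRs, r was 0.98 and rho 0.95 (n = 28, permutation p 1e-05 for both, the smallest these permutations can give, adjusted 7.7e-05 and 8.3e-05). Hba-a3 followed the major globins in WKY rats in 8 of 9 tests, with r from 0.54 to 0.93. With Hbb in the NTS of WKY rats its r was 0.93 and its rho 0.80 (n = 18, permutation p 0.00033 and 0.00307, adjusted p 0.0016 for r). That r was 0.80 without the 2 rats farthest from the median.

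Alas2 followed the major globins more loosely. In SHRs 9 of 9 correlations passed, with r from 0.41 to 0.75, and in WKY rats 6 of 9, with r from 0.38 to 0.73. The closest was Hbb in the CVLM of SHRs, with r 0.75 and rho 0.77 (n = 28, permutation p 3e-05 for both, adjusted p 0.00018 for r). With the mean of each library number removed too, 3 of the 9 in WKY rats passed and all 9 in SHRs.

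The tissue globins covaried with the red cell genes in some regions. Ngb passed with red cell genes in 8 of 12 tests in SHRs, with r from 0.03 to 0.58, and in 0 of 15 in WKY rats, where 1 Spearman test passed. With Hba-a2 in the NTS of SHRs, the r of Ngb was 0.58 and its rho 0.62 (permutation p 0.003 for r, adjusted 0.0093), and 0.56 without the 2 outermost rats. Cygb passed in 3 of 12 tests in SHRs, all negative and all in the NTS. With Hba-a1 there, its r was -0.57 and its rho -0.57 (permutation p 0.00124 for r, adjusted 0.0052). In WKY rats 0 of 15 Pearson and 2 of 15 Spearman tests of Cygb passed, and 3 of 15 Pearson tests once library numbers were centered too. With Hbb in the NTS of WKY rats, the r of Cygb was -0.49 (n = 18, permutation adjusted p 0.223), its rho -0.74 (0.0178), and its r -0.78 (0.017) with library numbers centered. A difference of these correlations between strains was not tested. How often other genes would pass with the red cell genes was not determined, so nothing is read from the counts of tests passed.

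Hemoglobin levels in 1 region tracked those in another region of the same rat in SHRs, and in WKY rats in some tests only. Of 39 tests between regions, 12 passed, and 9 of these were Hba-a1, Hba-a2 and Hbb in SHRs, where n was 28 against 18 in WKY rats. Without the 2 rats farthest from the median 6 of 39 passed, and a difference between the strains was not tested. Between CVLM and RVLM of SHRs, r was 0.69 for Hba-a1, 0.74 for Hba-a2 and 0.72 for Hbb (n = 28, permutation adjusted p 0.00065 for each), with rho of 0.69, 0.80 and 0.74. Between NTS and RVLM, r of Hba-a1 was 0.49 and rho 0.58 (permutation adjusted p 0.033 and 0.0085). In WKY rats, Hba-a1 (r 0.63) and Hba-a2 (r 0.59) passed between NTS and CVLM and Alas2 (r 0.74) between CVLM and RVLM. With library numbers centered too, 8 of 39 passed, and Hba-a1 between NTS and CVLM of WKY rats dropped to an r of 0.39. Ngb and Cygb passed between no pair of regions. The share of other genes that would pass between regions was not determined.

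**Figure D5:**
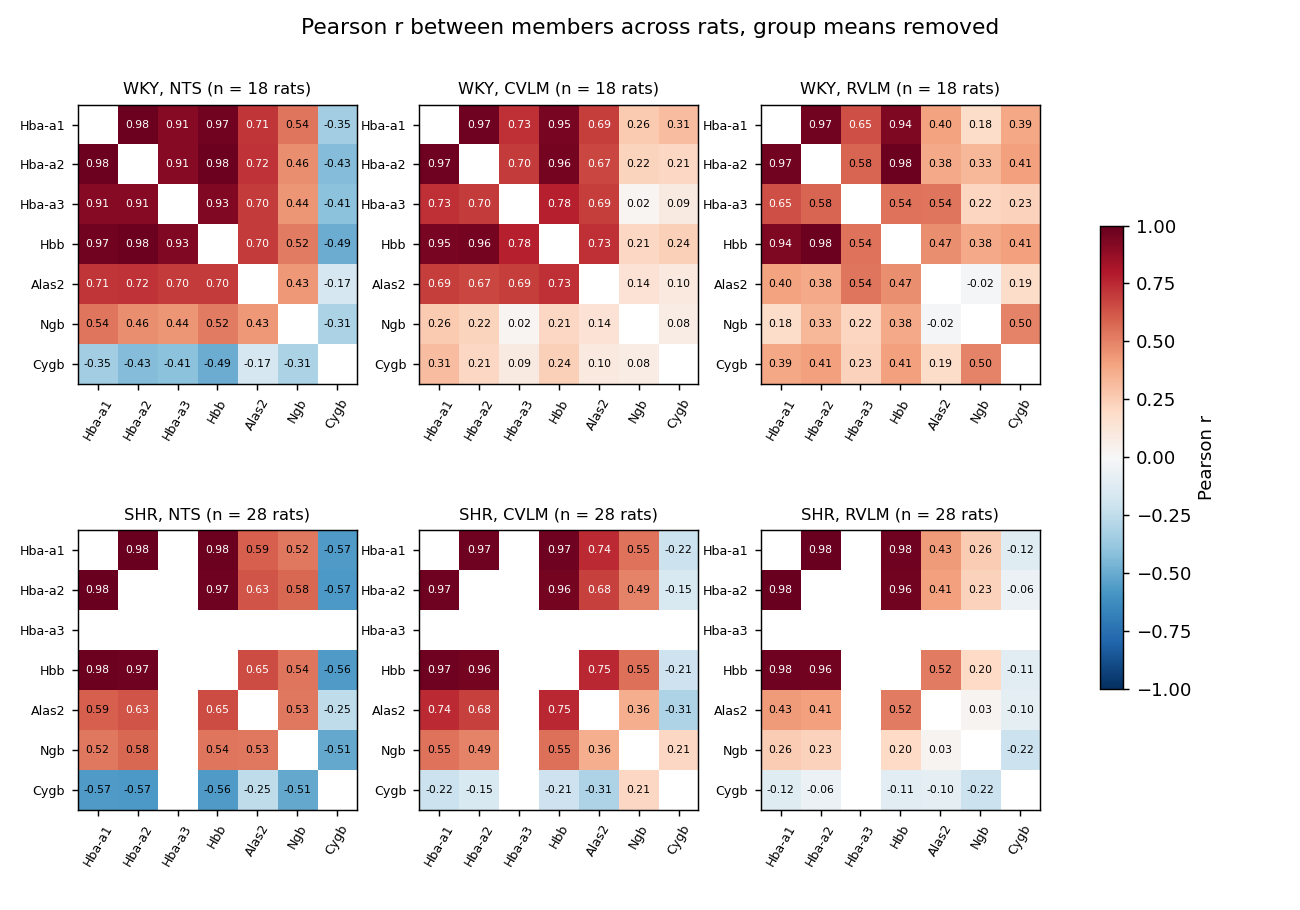
Pearson r between the genes of the set across rats, in WKY rats (top row, n = 18) and SHRs (bottom row, n = 28), with a panel per region, after group means were removed. The color scale runs from -1 (blue) to 1 (red), and blank cells are the diagonal and Hba-a3 in SHRs. Hba-a1, Hba-a2 and Hbb form a block with r of at least 0.94, and Cygb is negative against them in the NTS.

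The genes most like Hbb in pattern over the 46 libraries of a region were its partners in hemoglobin, among 13116 genes tested in every region. By mean r over the 3 regions they were Hba-a2 (0.97), Hba-a1 (0.96), LOC103694857 (0.96), Lgals5 (0.69) and Ppib (0.69). After the globins the likeness dropped by more than 0.2. For Ngb the first were Ccs (0.66), a copper chaperone, and S100a16 (0.65), a calcium-binding protein, and for Cygb Hdac11 (0.66), a histone deacetylase, and Coro1c (0.61), a regulator of actin. These r values were taken on log2 CPM after the mean of each strain and age was removed, over libraries that still share a library number, and are descriptions.

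Other red cell genes were low, and some were near 0. Of 16 such genes, 15 were listed by the tables. Their summed level in WKY rats and SHRs had medians of 8.34 and 6.93 CPM (NTS), 4.48 and 4.59 (CVLM) and 11.6 and 10.8 (RVLM). Slc4a1, the red cell anion exchanger, was at 0 in 83 libraries and Gata1, the red cell transcription factor, in 131. Others of the list were found in nearly all libraries. Klf1 and Rhd were each at 0 in 1 library, with median counts of 10.5 and 12. Trim58 had a mean of 2.76 CPM over all libraries and was at 0 in 14. Only 3 of the list were tested in the NTS and 2 each in the CVLM and RVLM, and edgeR called 0 for strain, with 0 at an unadjusted p under 0.05 and 0 in DESeq2. For age edgeR called 0 too, with 1 at an unadjusted p under 0.05 in the NTS of WKY rats, which DESeq2 called, and 1 in the CVLM of SHRs. Between regions, where 4 of the list were tested, edgeR called 4 (NTS against RVLM), 3 (CVLM against RVLM) and 3 (NTS against CVLM) in WKY rats and 3, 2 and 3 in SHRs, in both directions. Of all genes, 64.2%, 41.1% and 52.5% passed in WKY rats and 64.4%, 44.3% and 55.9% in SHRs. Nothing is therefore read from these counts out of 4.

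Other lists were examined for strain and age differences. So few of all genes passed for strain at the size used above that 0 calls in a short list do not show that a difference is absent. Of 13 heme synthesis genes, all tested, 0 passed for strain at the size used above in edgeR or DESeq2, where 1.45% (NTS), 1.52% (CVLM) and 1.56% (RVLM) of all genes passed. At an unadjusted p under 0.05 alone there were 3, 7 and 5 of them. Such counts are given without the share of all genes at that p, so nothing is read from their size. Between 8 and 10 wk in SHRs, 2 were higher and 4 lower (NTS), 4 and 3 (CVLM), or 1 and 1 (RVLM). Of all genes, 14.2%, 13.7% and 11.8% were higher and 12.9%, 11.6% and 10.2% lower in these regions. Cpox, a late enzyme of the pathway, was higher by 0.90 ± 0.29 in the NTS (edgeR adjusted p 0.021), while Alas1, the form of the first enzyme used outside red cells, was lower by 0.48 ± 0.12 (0.0041). Of 5 tested genes of heme breakdown and scavenging, 0 passed for strain in edgeR or DESeq2, with 2, 2 and 4 at an unadjusted p under 0.05. Hmox2, a heme oxygenase, was lower at 10 than at 8 wk in the NTS of SHRs by 0.29 ± 0.10 (edgeR adjusted p 0.0297), and Blvrb, a biliverdin reductase, was lower in the CVLM by 0.33 ± 0.12 (0.0469). All of these age calls involve the 10-wk libraries and are given without the library number as a term. With that term, edgeR called 0%, 0.0447% and 0.0597% of all genes between 8 and 10 wk in SHRs (NTS, CVLM, RVLM).

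Among 10 tested genes of the hypoxia response, 0 passed for strain in edgeR or DESeq2, with 4, 1 and 3 at an unadjusted p under 0.05. At 10 against 8 wk in SHRs, 3 (NTS), 4 (CVLM) and 3 (RVLM) passed, 1, 3 and 2 of them higher. Of all genes, 14.2%, 13.7% and 11.8% were higher there and 12.9%, 11.6% and 10.2% lower. Vegfa, an angiogenic factor, was higher by 0.93 ± 0.21 in the NTS (edgeR adjusted p 0.0026), 1.20 ± 0.25 in the CVLM (0.00095) and 1.19 ± 0.24 in the RVLM (0.0011). Ndrg1, a stress-responsive gene, was lower by 0.73 ± 0.16 (0.0023), 0.45 ± 0.10 (0.0016) and 0.39 ± 0.12 (0.022) in the same order. These calls too involve the 10-wk libraries and are given without the library number as a term, so age and number cannot be told apart. The 6 tested endothelial genes had 0 calls for strain in edgeR and DESeq2, with 2, 1 and 1 at an unadjusted p under 0.05. Their summed level had medians of 250 and 237 CPM in the NTS of WKY rats and SHRs, 311 and 296 in the CVLM and 352 and 353 in the RVLM. Of the 9 leukocyte markers 2 were tested, and 0 passed for strain in edgeR or DESeq2, with 2, 1 and 1 at an unadjusted p under 0.05. For age in SHRs edgeR called 0 of these, with 1, 1 and 0 at an unadjusted p under 0.05, and DESeq2 called 1 in the NTS. Of the 5 platelet markers 1 was tested, in the NTS, and it passed in neither tool and at no unadjusted p under 0.05. Among 6 tested markers of pericytes and smooth muscle, 1 passed for strain in the NTS, Tagln, a smooth muscle actin-binding protein, which was higher in SHRs by 1.12 ± 0.10 on the log2 scale. In the CVLM and RVLM 0 passed in edgeR or DESeq2, and at an unadjusted p under 0.05 there were 3, 3 and 4 of the 6. Their summed level was higher in SHRs, with medians of 51.9 and 66.7 CPM in WKY rats and SHRs (NTS), 64.2 and 81.2 (CVLM) and 69.0 and 87.5 (RVLM). Of the choroid plexus genes, 2 of 4 tested passed for strain in the NTS, both lower in SHRs, and 1 of 2 in the CVLM, higher in SHRs. For age in WKY rats, 3 and 1 passed. Of all genes, 1.45% and 1.52% passed for strain and 12.5% and 22.1% for age in WKY rats. These fits held the WKY libraries high in choroid plexus genes, and calls without them are not given. Summed levels had medians of 4.82 and 4.26 CPM in WKY rats and SHRs (NTS) and 1.72 and 2.79 (CVLM). The part of blood content in the hemoglobin values was not tested.

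LOC103694857 (ENSRNOG00000061299), a locus that the list of other globins held under its symbol alone, moved like the major globins. Its medians in WKY rats and SHRs were 51.8 and 30.3 CPM (NTS), 61.8 and 28.8 (CVLM), and 55.6 and 30.1 (RVLM). The mean strain difference was -0.69 ± 0.17, -1.05 ± 0.13 and -0.89 ± 0.14 on the log2 scale. In SHRs it passed the age test in each region (edgeR adjusted p 0.007, 0.0186 and 0.0043), in the fit without the library number as a term.

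Of 6 tested genes from the neighborhood of the alpha-globin cluster, 1 reached the size used above, in the CVLM and the RVLM. Rhbdf1, a rhomboid-like protein of the secretory pathway, had medians of 12.3 CPM in WKY rats and 5.66 in SHRs in the NTS, 20.0 and 7.36 in the CVLM, and for the RVLM 21.4 and 7.97. Its mean strain difference was -0.95 ± 0.13 (NTS), -1.29 ± 0.12 (CVLM) and -1.28 ± 0.11 (RVLM). The other 5 did not reach the size used above in any region, with 4, 3 and 3 of the 6 at an unadjusted p under 0.05, and the list's median difference was -0.04, -0.02 and -0.01 against 0.01, 0.00 and 0.01 over all genes. The summed level of the 8 listed genes was lower in SHRs, with medians of 221 and 172 CPM in WKY rats and SHRs (NTS), 223 and 175 (CVLM) and 219 and 164 (RVLM). Rhbdf1 was a small part of these sums, so most of their difference lay in other genes of the list, which are not shown singly. Rhbdf1 values are a description from the contrast that chose the set, and its link to the globin values was not tested.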

How the data were processed

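Brainstem punches of 3 regions from 46 female rats were measured by RNA sequencing, with 1 library per punch. The authors deposited estimated counts per gene, made with RSEM over STAR alignments to rn6, and 4.952% of all values, zeros included, are not whole. The study's methods name ComBat_seq, and whether the deposited values carry that adjustment is not given in the sources used here. Counts were rounded, normalized by TMM and fitted with edgeR 4.0.16 (R 4.3.3). As in the study, genes with a maximum rlog value under 3.5 (DESeq2 1.42.0) were left out, which kept 13793, 13408 and 13411 genes in the NTS, CVLM and RVLM. All 7 genes passed this filter, Hba-a3 through its WKY level alone.

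One fit per region held 10 groups of strain and age. Region contrasts came from 1 fit of all libraries with the rat as a block, since the library names tie the 3 punches to 1 rat. Log2 CPM used a prior count of 2. P-values were adjusted by Benjamini-Hochberg over all genes of a contrast. Counts at an unadjusted p under 0.05 stand without the share of all genes at that p and are descriptions. Rats are the replicates, taken from the group named in each title. Alternatives were DESeq2 (also its size factors), no low-count filter, a replicate block, the library number as a term, single ages and leaving out each rat, and later 10 wk, number-2 or choroid-rich libraries. Scripts were tested on simulated data. The 7 genes and the gene lists were chosen with earlier results of these data known. Genes outside the set are named when a fixed list holds them, or as the 5 genes most like Hbb, Ngb and Cygb.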

Additional observations from a re-analysis of the deposited data

Results flagged for a closer look

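Of 132 groups of 4 to 6 libraries examined, 3 held a library far from the others, and chance alone gives about 1 in 20. Both red cell values below come from 1 library, the NTS of WKY replicate 1 at 8 wk. In it, Hba-a2 was the highest of 5 libraries at 332 CPM, with the nearest at 135 CPM. Alas2 was likewise the highest of 5 there, at 8.85 CPM against 4.28 CPM in the nearest library. In the NTS of SHRs at 8 wk, replicate 3 was the lowest of 5 for Cygb at 21.7 CPM, with the nearest at 29.9 CPM. Without WKY replicate 1 at 8 wk, 4 genes of the set in place of 2 passed between NTS and CVLM in WKY rats.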

How the results depend on the processing

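No result past its threshold changed sign under an alternative. Of the strain differences described, that of Cygb in the RVLM, near 0, ran from -0.08 to 0.05. Counts not named here stayed within 1.5 times of those in the report. Counts of strain differences at the 5 ages are a description: the 11 values in the CVLM became 5 with each age fitted alone. Replicate numbers of the strains pair no animals. Of 54 same-number pairs of libraries, 32 deviated from their group means with r over 0.1 (range -0.33 to 0.55, median 0.15). With this replicate block the strain count was 5 in the CVLM and 1, in place of 5, in the RVLM. The age test with a replicate block could not be estimated, and in the region fit the library number is absorbed by the rat and was not run.

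The age calls moved most. With the library number as a term, each count became 0, from 2 in WKY rats and 4 in SHRs (NTS), 4 and 4 (CVLM) and 2 and 4 (RVLM). Without the 10-wk libraries, each was 0 as well. Without the libraries high in choroid plexus genes, the count was 0 in the NTS of WKY rats and 1 in place of 2 between NTS and CVLM of WKY rats. Correlations were not run without them. Without a low-count filter, WKY rats had 0 in the NTS and 0 in the RVLM. DESeq2 called 4 in the RVLM of WKY rats, and the fit without the number-2 libraries outside 10 wk called 1 there and 4 in place of 2 between NTS and CVLM of WKY rats. Without the rat as a block, 1 gene passed between NTS and CVLM of WKY rats. Correlations between regions fell from 12 to 6 without the 2 outermost rats and to 8 with library numbers centered. The fits without 10-wk, number-2 or choroid-rich libraries and the centering were chosen after seeing the data.

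Leaving out 1 rat at a time gave 0 to 3 age calls in the NTS of WKY rats and 0 to 3 in the RVLM. The counts were 0 in the NTS without any 1 WKY rat of 10 wk, WKY replicate 1 of 12, 16 or 24 wk, or replicate 3 of 16 or 24 wk. They were 0 in the RVLM without WKY replicate 3 of 8 wk, replicates 1, 2 or 4 of 10 wk, replicates 1 or 2 of 12 wk, or replicates 1 or 3 of 16 or 24 wk. A count of 1 resulted in the NTS from 9 other rats and in the RVLM from 21 other rats. Genes passing between NTS and CVLM of WKY rats numbered 2 to 4, with 4 without WKY replicate 1 of 8 wk. The other age counts were 3 or 4 without any 1 rat. Depth limits the SHR values of Hba-a3 and the red cell genes near 0, and the causes of these shifts were not tested.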
